A study of Mus musculus with 4 samples.

Results

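The genes described here are 42 integrin subunits and focal adhesion components, the proteins through which a cell grips the extracellular matrix and ties it to its actin cytoskeleton. They were chosen by name and found by their symbols in the count table. All 42 are among its 45706 genes, and all 42 passed the minimum of 5 counts on average that 18763 genes passed. The 42 genes comprise 11 integrin alpha subunits, 4 beta subunits, 4 proteins that activate integrins or join them to actin, 4 members of the ILK-PINCH-parvin complex, 3 tensins, 6 kinases and signalling scaffolds, 6 LIM-domain and actin assembly proteins and 4 actin crosslinkers.

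The study asked what the loss of *Myh10* function does to the developing lung, and polyadenylated RNA of left lung lobes was sequenced at embryonic day 17 (E17), in the saccular stage. There were 2 lungs of wild type embryos (*Myh10*+/+) and 2 of embryos homozygous for L458R (*Myh10*-/-), all C57BL/6 and untreated. *Myh10* encodes the heavy chain of non-muscle myosin II-B, and L458R is a missense change in its motor domain that came from a chemical mutagenesis screen, so every cell type of the embryo carried it from the start. Levels are given as counts per 1000000 counts of a library (CPM), scaled between libraries by the TMM method, and the total count on genes ranged from 19116971 to 32055306, with both *Myh10*-/- lungs the deeper ones.

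Integrins are pairs of 1 alpha and 1 beta chain that span the membrane. Talins and kindlins bind the beta tail and switch the receptor on, vinculin, the ILK complex and tensins join it to actin, and kinases such as FAK (*Ptk2*) and SRC signal through scaffold proteins held at the same site. Focal adhesions grow and mature under the pull of myosin II, and in the lung they hold epithelium, mesenchyme and vessels to the matrix of the future alveolar walls.

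*Myh10* RNA itself stood at 505 and 504 CPM in *Myh10*+/+ and at 539 and 513 CPM in *Myh10*-/-. The log2 fold change of *Myh10* (*Myh10*-/- over *Myh10*+/+ throughout) was 0.06 (95% interval -0.07 to 0.19, adjusted p = 0.662), and since L458R is a point mutation, the count does not tell the genotypes apart. Lung identity was clear in each library, with the lung transcription factor *Nkx2-1* between 434 and 455 CPM. *Xist* stood at 3916 CPM in *Myh10*+/+ lung 1 and at 4457 CPM in *Myh10*-/- lung 2, and at 1.84 and 4.10 CPM in the other two, so each genotype held a lung with *Xist* and a lung without it. The replicates came from separate animals, and with 2 a genotype an exact permutation test could not go below p = 0.3333, so tests come from models fitted across all genes.

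The adhesion genes were nearly level between the genotypes, with a small shift toward lower values in *Myh10*-/- that was spread over most of them. The integrin *Itga9* was lower at an adjusted p under 0.05, and *Itga3* lay at the threshold. The median log2 fold change of the 42 genes was -0.07, against 0.00 over all 18763 genes tested, and the values ran from -0.36 to 0.17. The fold change was below 0 for 33 of the 42 genes (78.6%), against 49.5% of all genes tested. The change was smaller than 10% for 33 genes, and for 32 genes the 95% interval lay within 0.3 of 0 on the log2 scale, a fold of 1.23 in either direction.

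By edgeR's quasi-likelihood test, 1 of the 42 genes (2.38%) was lower at an adjusted p under 0.05, against 1.34% of all genes tested, a share of the same order. None was higher, against 0.298% of all genes, and DESeq2 called none higher either. At an unadjusted p under 0.05, 7 genes (16.7%) were lower, against a background of 9.02%, and 1 (2.38%) was higher, against 7.52%. Both *Myh10*-/- lungs lay below both *Myh10*+/+ lungs for 25 genes (59.5%), where 24.3% of all genes did, and above them for 5 genes (11.9%), where 23.9% did. In the remaining 12 genes the genotypes overlapped. Adhesion genes are well counted, so the same was read among genes averaging 250 counts or more, which 39 of the 42 did. Of these 39, 7 (17.9%) were lower at an unadjusted p under 0.05 against 12.3% of all such genes, and 23 (59%) were lower without overlap against 28.9%. Leaving out 1 lung moved these counts. It leaves 1 lung in a group, and 3 lungs separate by genotype more readily than 4. Counts with a lung left out are therefore not set beside the shares above. In whole lung, fewer cells of a type and less RNA per cell cannot be told apart.

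**Figure D1:**
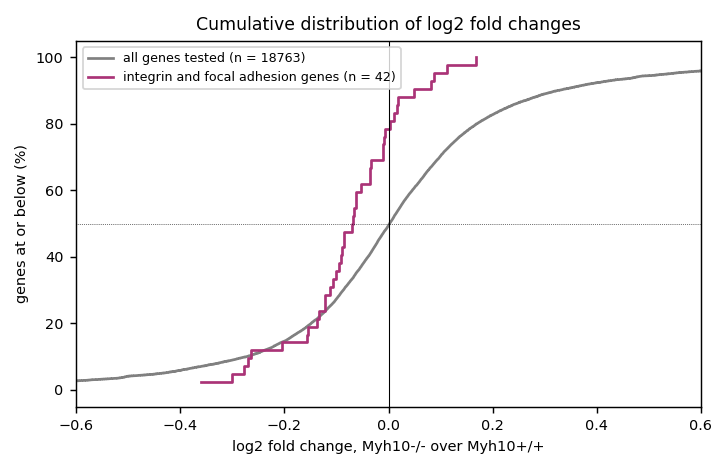
Cumulative share of genes (y axis, %) at or below each log2 fold change (x axis, *Myh10*-/- over *Myh10*+/+), for the 42 adhesion genes and the 18763 genes tested. The curve of the adhesion genes crosses 50% at -0.07 and that of all genes at 0.00, and it stays between -0.36 and 0.17 while the curve of all genes has longer tails.

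The alpha subunits, which set the ligand a receptor binds, held 4 of the 7 genes that were lower at an unadjusted p under 0.05. Of 11 alpha subunits, 8 had a fold change below 0 and 3 above, with a median log2 fold change of -0.12. One was lower at an adjusted p under 0.05, 4 were lower and 1 was higher at an unadjusted p under 0.05, and the groups did not overlap for 7 lower and 2 higher subunits. Over all genes tested the shares were 1.34% lower at an adjusted p, 9.02% lower and 7.52% higher at an unadjusted p, and 24.3% lower and 23.9% higher without overlap.

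*Itga9* encodes the alpha 9 chain, a partner of *Itgb1* that binds tenascin and the fibronectin EIIIA segment and is needed for lymphatic valves. The gene (ENSMUSG00000039115) lies on chromosome 9 at 118606690 to 118901003 on the plus strand of GRCm38, and reads over its 32 exon blocks were counted. *Itga9* stood at 141 and 133 CPM in *Myh10*+/+ and at 111 and 117 CPM in *Myh10*-/-. Both *Myh10*-/- lungs were thus below both *Myh10*+/+ lungs, and the gap between the genotypes was wider than the gap within either. The log2 fold change of *Itga9* was -0.27 (SE 0.05, 95% interval -0.38 to -0.15, adjusted p = 0.0336), and its level fell by 16.8%. It passed in 16 of 17 fits, this one and its alternatives, and failed without *Myh10*+/+ lung 1 (log2 fold change -0.23, adjusted p = 0.239).

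*Itga3* encodes the alpha 3 chain, which with *Itgb1* forms a laminin receptor of lung epithelium. The gene (ENSMUSG00000001507, chromosome 11, 95044474 to 95076801, minus strand) stood at 131 and 117 CPM in *Myh10*+/+ and at 102 and 103 CPM in *Myh10*-/-. The genotypes did not overlap, and the *Myh10*-/- lungs lay close together. At *Itga3* the log2 fold change was -0.27 (SE 0.06, 95% interval -0.40 to -0.14), but the adjusted p of 0.0505 missed the threshold. It passed in 10 of 17 fits, DESeq2's among them (adjusted p = 0.0287), and was furthest from passing without *Myh10*+/+ lung 1 (log2 fold change -0.19, adjusted p = 0.404).

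*Itga6* encodes the alpha 6 chain, a laminin receptor with *Itgb1* or *Itgb4*, and was the alpha subunit with the most CPM per kilobase of exon. The gene (ENSMUSG00000027111, chromosome 2, 71745616 to 71858416, plus strand) had 345 and 314 CPM in *Myh10*+/+ and 301 and 305 CPM in *Myh10*-/-, with no overlap but a wide gap between the *Myh10*+/+ lungs. For *Itga6* this was a log2 fold change of -0.12 (95% interval -0.24 to -0.003, adjusted p = 0.289), which was -0.05 without *Myh10*+/+ lung 1 and -0.19 without *Myh10*+/+ lung 2. *Itga6* shares 5.95% of its 75-base windows with the predicted gene Gm29397, so its count is uncertain to that extent.

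*Itga7*, the alpha 7 chain, is a laminin receptor of muscle cells. The gene (ENSMUSG00000025348, chromosome 10, 128933818 to 128958282, plus strand) had 31.6 and 37.3 CPM in *Myh10*+/+ against 26.9 and 29.8 CPM in *Myh10*-/-. The groups were separate, with the lower *Myh10*+/+ lung close to the higher *Myh10*-/- lung. For *Itga7* the log2 fold change came to -0.28 (95% interval -0.48 to -0.08, adjusted p = 0.155), and it passed in 4 of 17 fits. It was -0.16 without *Myh10*+/+ lung 2 and -0.40 without *Myh10*+/+ lung 1.

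*Itga1*, the alpha 1 chain of a collagen receptor found on smooth muscle, fibroblasts and vessels, was the 1 adhesion gene on the higher side at an unadjusted p under 0.05. The gene (ENSMUSG00000042284, chromosome 13, 114953096 to 115101964, minus strand) had 124 and 109.6 CPM in *Myh10*+/+ and 136 and 127 CPM in *Myh10*-/-. The groups did not overlap, but the nearest lungs of the 2 genotypes lay closer to each other than the 2 lungs of either. *Itga1* had a log2 fold change of 0.17 (95% interval 0.03 to 0.31, adjusted p = 0.216), and it passed in 0 of 17 fits. It was 0.08 without *Myh10*+/+ lung 2 and 0.26 without *Myh10*+/+ lung 1. A same-strand predicted gene, Gm49395, covers 3.68% of the exon bases of *Itga1*.

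Another collagen receptor chain, *Itga2*, had a log2 fold change of 0.11 (95% interval -0.06 to 0.29) and was also higher in both *Myh10*-/- lungs. *Itga8*, the mesenchymal receptor chain for nephronectin, had 0.08 with overlapping groups. *Itga5*, the fibronectin receptor chain, had -0.09 (95% interval -0.21 to 0.04) and *Itga4*, a receptor chain for VCAM1 and fibronectin, had -0.01. *Itga2b*, which marks megakaryocytes and platelets, had -0.16, and *Itga11*, a collagen receptor chain of fibroblasts, had -0.30 with a 95% interval from -0.79 to 0.19 at about 2 CPM. None of these 6 passed an unadjusted p under 0.05.

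**Figure D2:**
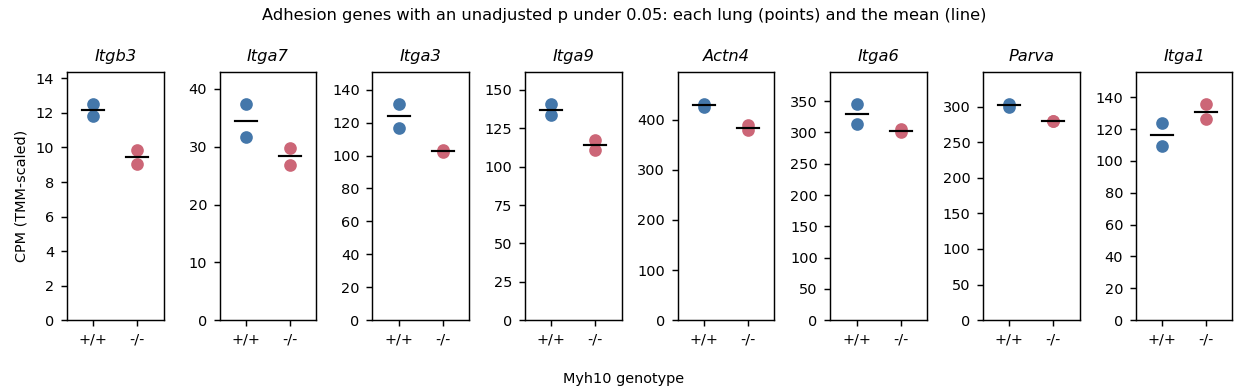
CPM (y axis, linear from 0) of the 8 adhesion genes with an unadjusted p under 0.05, by *Myh10* genotype (x axis). Points are single lungs, 2 per genotype, and lines are the means. Both *Myh10*-/- points lie below both *Myh10*+/+ points for 7 genes and above them for *Itga1*.

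Among the beta subunits, 3 of 4 had a fold change below 0 and *Itgb1* was level. *Itgb3*, the chain of the vitronectin receptor and of the platelet fibrinogen receptor, had the lowest fold change of all 42 genes. The gene (ENSMUSG00000020689, chromosome 11, 104608000 to 104670476, plus strand) had 11.8 and 12.5 CPM in *Myh10*+/+ and 9.02 and 9.88 CPM in *Myh10*-/-. Both *Myh10*-/- lungs were below both *Myh10*+/+ lungs by more than either genotype's own spread. *Itgb3* had a log2 fold change of -0.36 (SE 0.11, 95% interval -0.59 to -0.13, adjusted p = 0.115), and it passed in 1 of 17 fits. The summed markers of platelets and megakaryocytes, which carry *Itgb3* too, overlapped between the genotypes, with 13.1 and 15.3 CPM in *Myh10*+/+ and 11.7 and 14.7 CPM in *Myh10*-/-. Most of that sum was *Pf4*, at 8.91 and 9.72 CPM in *Myh10*+/+ and 8.38 and 10.6 CPM in *Myh10*-/-. Of those 5 markers, 0 were lower in edgeR at an adjusted or an unadjusted p under 0.05 or in DESeq2. The fold change was below 0 for 4 of them and above 0 for *Pf4*, with a median log2 fold change of -0.31. The part of these cells in the value of *Itgb3* was not tested.

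*Itgb1*, the chain shared by 10 of the 11 alpha subunits listed, stood at 1118 and 1105 CPM in *Myh10*+/+ and at 1136 and 1115 CPM in *Myh10*-/-. These groups overlapped, and the log2 fold change of *Itgb1* was 0.02 (95% interval -0.17 to 0.20), or -0.02 after a correction for GC content and length. *Itgb5*, a second vitronectin receptor chain, had a log2 fold change of -0.12 (95% interval -0.27 to 0.03) and *Itgb4*, the hemidesmosome chain that pairs with *Itga6*, had -0.20 (95% interval -0.47 to 0.06). Neither passed an unadjusted p under 0.05.

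Per kilobase of exon, *Itgb1* was the highest of all 42 genes, at 274, 271, 278 and 273 CPM per kb in *Myh10*+/+ lungs 1 and 2 and *Myh10*-/- lungs 1 and 2. The 10 alpha chains among the 42 genes that pair with it summed to 140 and 131 CPM per kb in *Myh10*+/+ and to 127 and 125 CPM per kb in *Myh10*-/-. Partners outside the 42 genes are left out of this sum. The level of *Itgb1* was thus 1.96 and 2.06 times that sum in *Myh10*+/+ and 2.19 and 2.18 times in *Myh10*-/-. *Itga6* made up 26.3% to 27.4% of the sum in the 4 lungs. *Itga3* made up 16.4% and 15.6% of the sum in *Myh10*+/+ and 14.1% and 14.4% in *Myh10*-/-, and *Itga8* 14.0% and 14.1% against 16.7% and 15.2%. These levels are RNA per exon length and not receptor at the cell surface.

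**Figure D3:**
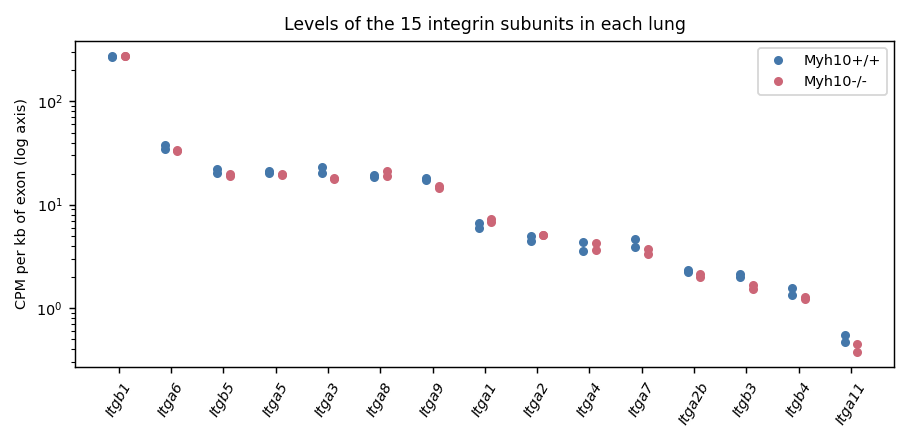
Level of the 15 integrin subunits in each lung, in CPM per kb of exon on a log axis (y), in order of the mean level (x). Points are single lungs, 2 per genotype. *Itgb1* lies between 271 and 278 in all 4 lungs, the next is *Itga6* between 33.3 and 38.2, and *Itga11* is lowest, below 0.6.

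*Itga6* was the highest alpha subunit in each of the 4 lungs on the scale of CPM per kb of exon. *Itga5*, *Itgb5*, *Itga3* and *Itga8* followed and could not be ordered, since the ranges of their 4 lungs overlapped, from 19.4 to 21.3, 19.1 to 22.0, 17.9 to 23.0 and 18.5 to 21.2 CPM per kb. *Itga9* came next at 14.4 to 18.3 CPM per kb and overlapped *Itga3* across genotypes but not within one. The remaining chains among the 15 stood at 7.29 CPM per kb or less in each lung.

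Of the 27 genes inside the cell, none was lower or higher at an adjusted p under 0.05 by edgeR or DESeq2, and 2 were lower and 0 higher at an unadjusted p under 0.05. Their changes ran from -10.3% to 6.31%, and 15 of the 27 lay lower in both *Myh10*-/- lungs than in both *Myh10*+/+ lungs, where 24.3% of all genes did. The 2 of 27 at an unadjusted p under 0.05 were a smaller share than the 9.02% of all genes.

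The 4 genes that activate integrins or link them to actin all had fold changes below 0, with a median log2 fold change of -0.07. *Fermt2*, kindlin-2, which binds the beta tail beside talin, was the one with the lowest p. *Fermt2* had 436 and 422 CPM in *Myh10*+/+ and 404 and 396 CPM in *Myh10*-/-, separate groups about as far apart as the *Myh10*+/+ lungs were from each other. Its log2 fold change was -0.10 (95% interval -0.21 to 0.01, adjusted p = 0.349). *Tln1*, the main talin, had -0.09 with no overlap, while *Tln2* had -0.04 and *Vcl*, vinculin, -0.05, both with overlap. Per kb of exon the level of *Tln1* was 26.7 to 29.9 times that of *Tln2* in the 4 lungs. The exons of *Vcl* overlap those of *Ap3m1* on the opposite strand over 25.5% of their bases, and the use of strand in the counting is not given in the sources used here, so the count of *Vcl* is uncertain.

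Many focal adhesion genes are known targets of serum response factor (SRF), which binds the CArG box, and of YAP/TAZ with TEAD factors. Promoter windows of 300 bases (250 before the start and 50 after) from RefSeq on GRCm38.p6 were matched for 33 of the 42 genes, as 40 windows. Both strands were searched for the CArG box and for the TEAD core GGAATG, motifs that differ in letters and were counted separately. The CArG box was found in 3 of the 40 windows (7.5%), those of *Fermt2*, *Vcl* and *Trip6*, against 1.63% of 32851 windows of all genes. The TEAD core was found in 6 windows (15%), those of *Actn4*, *Flna*, *Itgb1*, *Lpp*, *Trip6* and *Vcl*, against 14.7%. The 2 stretches with a CArG box upstream of the start are printed below 5′ to 3′ along the gene's strand, with the box in capitals, since the CArG box was the motif whose share stood further from that of all windows, though on only 3 windows and with no test. They lie at chr14:45530215-45530314 on the minus strand for *Fermt2*, with the box starting 204 bases before the start, and at chr14:20929148-20929247 on the plus strand for *Vcl*, with the box starting 227 bases before it. A match describes these letters and not binding.
Fermt2: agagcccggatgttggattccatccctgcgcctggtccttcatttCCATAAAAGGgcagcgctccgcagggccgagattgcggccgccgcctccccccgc
Vcl: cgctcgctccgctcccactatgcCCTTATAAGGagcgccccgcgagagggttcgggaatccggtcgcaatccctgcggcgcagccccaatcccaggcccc

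The genes with these boxes did not share a direction. The log2 fold change was -0.10 for *Fermt2*, -0.05 for *Vcl* and 0.09 for *Trip6*, and none of the 3 passed an unadjusted p under 0.05.

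In the ILK-PINCH-parvin complex, which couples beta tails to actin, 4 of 4 genes had a fold change below 0, with a median log2 fold change of -0.07. *Parva*, alpha-parvin, the actin-binding arm of the complex, had the lowest p. The gene (ENSMUSG00000030770, chromosome 7, 112427505 to 112591692, plus strand) had 303 and 299.9 CPM in *Myh10*+/+ and 279.6 and 280.3 CPM in *Myh10*-/-. Lungs of 1 genotype were nearly equal, and the groups were clearly apart. *Parva* thus had a log2 fold change of -0.11 (95% interval -0.21 to -0.01, adjusted p = 0.267), and it passed in 0 of 17 fits. *Parvb* had the same log2 fold change of -0.11 with no overlap, and the ratio of *Parva* to *Parvb* per kb of exon was 2.54 and 2.58 in *Myh10*+/+ and 2.52 and 2.63 in *Myh10*-/-. *Lims1*, PINCH-1, was level at 387, 395, 382 and 393 CPM in *Myh10*+/+ lungs 1 and 2 and *Myh10*-/- lungs 1 and 2, with a log2 fold change of -0.01 (95% interval -0.12 to 0.10) that turned to 0.01 when libraries were scaled by their totals.

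*Ilk*, the integrin-linked pseudokinase of that complex, was listed at only 1.004, 1.31, 1.29 and 0.96 CPM in the same order of lungs. Opposite-strand exons of *Rrp8* and *Taf10* overlap 89.7% of the exon bases of *Ilk*, which leaves 283 bases to themselves, and reads overlapping several genes were left out of the counts. Its log2 fold change of -0.03 had a 95% interval from -0.72 to 0.65, so a difference in *Ilk* was not detectable here, and its level relative to its partners cannot be read from these counts. In all, 12 of the 42 genes have exons that overlap an opposite-strand gene.

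The tensins, adaptors of the long-lived fibrillar adhesions along which fibronectin is drawn out, did not pass. *Tns1* had 1068 and 992 CPM in *Myh10*+/+ and 925 and 947 CPM in *Myh10*-/-, with both *Myh10*-/- lungs below but a gap within *Myh10*+/+ wider than that between the nearest lungs of the genotypes. Its log2 fold change was -0.14 (95% interval -0.32 to 0.04, adjusted p = 0.445). *Tns2* had -0.07 with overlap and *Tns3* 0.01 (95% interval -0.12 to 0.14). Per kb of exon the ratio of *Tns3* to *Tns1* was 0.773 and 0.822 in *Myh10*+/+ and 0.894 and 0.872 in *Myh10*-/-.

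The kinases and scaffolds differed by little, and in 6 of 6 genes both *Myh10*-/- lungs lay below both *Myh10*+/+ lungs, as in 24.3% of all genes. For *Git1* the nearest lungs were at 105.7 CPM in *Myh10*+/+ and 105.6 CPM in *Myh10*-/-. None passed an unadjusted p under 0.05, and the log2 fold changes ran from -0.13 to -0.04. *Bcar1*, p130Cas, a scaffold that is stretched under force, had the lowest p, with 82.1 and 80.6 CPM in *Myh10*+/+ and 72.1 and 76.1 CPM in *Myh10*-/-. The lower *Myh10*+/+ lung stood above the higher *Myh10*-/- lung by about as much as the *Myh10*-/- lungs differed from each other. *Bcar1* had a log2 fold change of -0.13 (95% interval -0.27 to 0.01, adjusted p = 0.318). *Src* had -0.09, *Git1* -0.07, *Nedd9* -0.07, *Pxn* (paxillin) -0.06 and *Ptk2* (FAK) -0.04 (95% interval -0.14 to 0.07).

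The LIM-domain and actin assembly proteins split evenly, with 3 of 6 below 0 and a median log2 fold change of 0.00. *Vasp*, which speeds actin filament growth at adhesions, had 194 and 199 CPM in *Myh10*+/+ and 183 and 185 CPM in *Myh10*-/-, groups that were apart by more than either one's spread. Its log2 fold change was -0.09 (95% interval -0.19 to 0.01, adjusted p = 0.326). *Zyx* (zyxin), which is recruited to actin under tension, had -0.09 with no overlap. *Lpp*, a relative of zyxin, had 0.00, or -0.08 after the GC and length correction, and *Enah*, a relative of VASP, had -0.01, or 0.01 with library totals, while *Trip6* had 0.09 and *Pdlim7* 0.05.

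Among the actin crosslinkers, 1 of 4 was lower at an unadjusted p under 0.05. *Actn4*, alpha-actinin-4 (ENSMUSG00000054808, chromosome 7, 28893248 to 28962340, minus strand), had 431 and 426 CPM in *Myh10*+/+ and 379.5 and 389 CPM in *Myh10*-/-. The genotypes were separated by several times the gap within either. At *Actn4* the log2 fold change was -0.16 (95% interval -0.27 to -0.05, adjusted p = 0.145), and it passed in 0 of 17 fits. *Capn12*, on the opposite strand, overlaps 5.16% of the exon bases of *Actn4*. Its paralog *Actn1* had -0.01 (95% interval -0.11 to 0.09), or 0.03 after the GC and length correction and 0.01 with library totals, and the ratio of *Actn4* to *Actn1* per kb of exon was 1.74 and 1.75 in *Myh10*+/+ and 1.54 and 1.61 in *Myh10*-/-. *Flna*, filamin A, an X-linked gene and the second highest of the 42 per kb of exon, had 1868 and 1861 CPM in *Myh10*+/+ and 1885 and 1883 CPM in *Myh10*-/-. Its log2 fold change was 0.02 (95% interval -0.20 to 0.23), and *Svil* (supervillin) had -0.06.

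**Figure D4:**
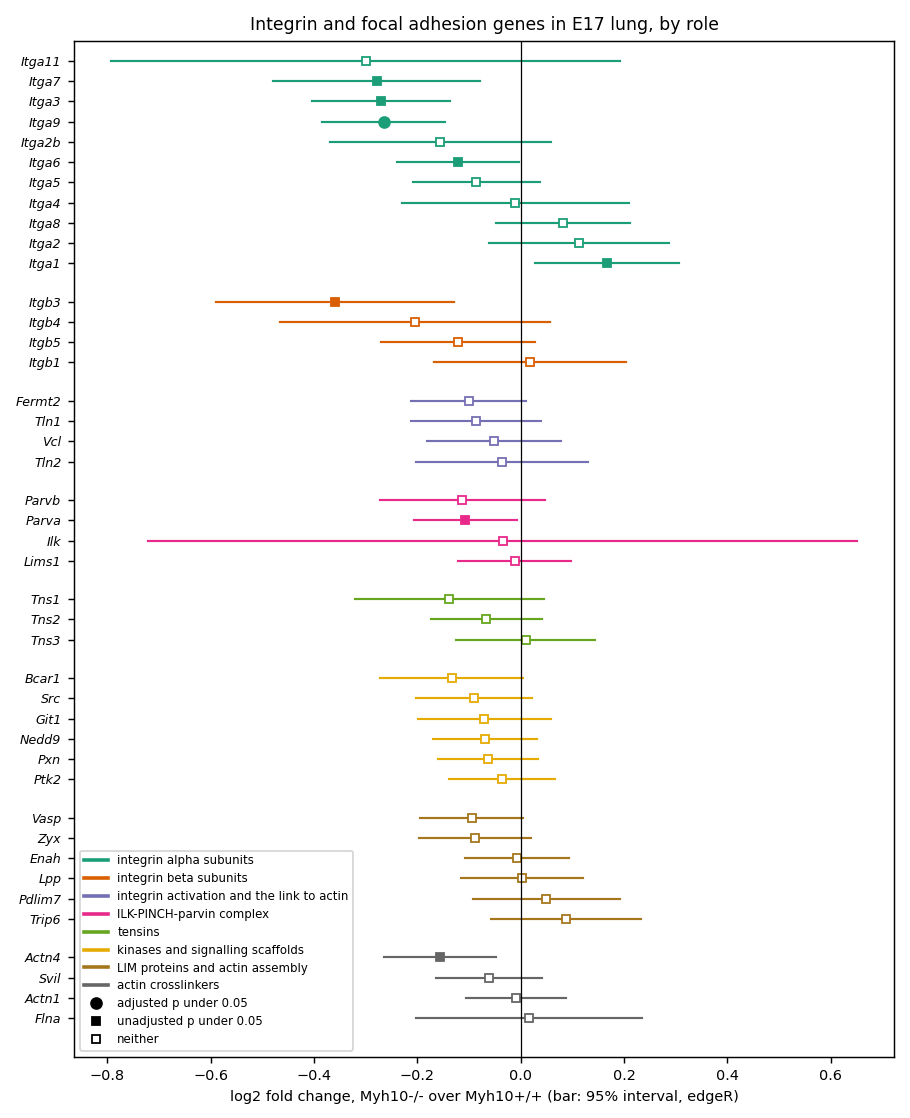
Log2 fold change of each of the 42 genes (x axis, *Myh10*-/- over *Myh10*+/+, n = 2 lungs each) grouped by role, with the 95% interval of edgeR as a bar. The filled circle is *Itga9*, the gene past an adjusted p of 0.05, filled squares are the 7 others with an unadjusted p under 0.05, and most symbols lie left of 0 by less than 0.2.

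The other integrin subunits were looked at next. Of 11, 10 were tested (*Itgad* was not), and 1 was lower and 1 higher at an adjusted p under 0.05. Of all genes tested, 1.34% were lower and 0.298% higher at that threshold. *Itgb6*, an epithelial chain that with *Itgav* activates TGF-beta, had 50.6 and 49.5 CPM in *Myh10*+/+ and 33.2 and 41.0 CPM in *Myh10*-/-, with a log2 fold change of -0.43 (95% interval -0.64 to -0.22, adjusted p = 0.0481). *Itgb8*, a second chain that with *Itgav* activates TGF-beta, had 8.16 and 7.51 CPM in *Myh10*+/+ and 13.0 and 10.8 CPM in *Myh10*-/-, with a log2 fold change of 0.59 (95% interval 0.33 to 0.86, adjusted p = 0.0362). The 2 chains moved in opposite directions, with no overlap between the genotypes for either, and they passed in 12 and 14 of 17 fits, and both calls were lost without *Myh10*+/+ lung 2 or without *Myh10*-/- lung 1. Their shared partner *Itgav* had a log2 fold change of 0.04 (95% interval -0.07 to 0.15). *Itgb2*, the leukocyte chain, had -0.54 (adjusted p = 0.0987), *Itga10* 0.34 (adjusted p = 0.163) and *Itgb7* -0.64 (adjusted p = 0.267).

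Of 54 further focal adhesion genes, 0 passed an adjusted p under 0.05 by edgeR in either direction, and at an unadjusted p under 0.05 the numbers were 9 lower and 0 higher. DESeq2 also called 0. Leaving out 1 lung moved the number called at an adjusted p under 0.05, but it leaves 1 lung in a group. With all 4 lungs, 9.02% of all genes tested were lower and 7.52% higher at an unadjusted p under 0.05. At an adjusted p under 0.05, 1.34% of all genes were lower and 0.298% higher. The fold change was below 0 for 42 of the 54, against 49.5% of all genes tested, with a median log2 fold change of -0.05. The lowest p was that of *Kank3*, whose protein caps adhesions in endothelium, with 111 and 118 CPM in *Myh10*+/+ and 95.7 and 99.3 CPM in *Myh10*-/- (log2 fold change -0.24, adjusted p = 0.0625, passing in 5 of 17 fits). *Lims2*, PINCH-2, followed with -0.56 (adjusted p = 0.0747), then *Sorbs3*, vinexin, with -0.20 (adjusted p = 0.112) and *Limd1* with -0.17 (adjusted p = 0.154).

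Of 28 matrix ligands of integrins, 26 were tested (*Madcam1* and *Fgb* were not), and 2 were lower and 0 higher at an adjusted p under 0.05 by edgeR. At an unadjusted p under 0.05, 9 were lower and 0 higher, and DESeq2 called 4 lower and 0 higher. Of all genes tested, 1.34% were lower at an adjusted and 9.02% at an unadjusted p under 0.05. Among those that passed was *Lamb3*, which encodes a laminin beta chain of epithelial basement membranes. *Lamb3* had 123 and 119 CPM in *Myh10*+/+ and 94.0 and 94.2 CPM in *Myh10*-/-, separate groups with a log2 fold change of -0.36 (95% interval -0.48 to -0.24, adjusted p = 0.00981). The laminin alpha chain gene *Lama3* was at 313, 291, 286 and 289 CPM in *Myh10*+/+ lungs 1 and 2 and *Myh10*-/- lungs 1 and 2, with a log2 fold change of -0.07 (adjusted p = 0.533). *Col4a2* had -0.26 (adjusted p = 0.0799) and *Lamc3* -0.48 (adjusted p = 0.0975). Leaving out 1 lung moved the number of ligands called lower, but it leaves 1 lung in a group. With a lung left out, the log2 fold change of *Lamb3* ran from -0.38 to -0.34.

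Markers of the cells that carry these receptors were lower in part. Of all genes tested, 1.34% were lower at an adjusted and 9.02% at an unadjusted p under 0.05. Of 6 markers of alveolar type 1 cells, the flat epithelium of gas exchange, 6 were lower at an adjusted p under 0.05, and their summed level was 1731 and 1658 CPM in *Myh10*+/+ and 1060 and 1303 CPM in *Myh10*-/-. For alveolar type 2 cells 5 of 6 markers were lower (8003 and 7648 against 5377 and 6358 CPM), and for epithelium in general 3 of 6 (1515 and 1528 against 1327 and 1366 CPM). In that general list 5 of 6 had a fold change below 0. *Epcam* and *Nkx2-1* overlapped between the genotypes, with log2 fold changes of -0.04 and 0.02. For endothelium 1 of 6 was lower, *Cldn5* (1408 and 1356 against 1277 and 1248 CPM for the list). All 6 endothelial markers had a fold change below 0, and 4 were lower at an unadjusted p under 0.05. For fibroblasts 0 of 6 and for smooth muscle 0 of 6 passed in edgeR, with sums of 1145 and 1130 against 1132 and 1170 CPM and of 684 and 739 against 666 and 664 CPM. For fibroblasts 1 of 6 was lower and 1 higher at an unadjusted p under 0.05, and for smooth muscle 0 in either direction. For pericytes 0 of 4 and for Schwann cells 0 of 4 passed in edgeR, with 1 lower in each at an unadjusted p under 0.05, while 1 marker was lower for mesothelium (*Msln*), for leukocytes (*Laptm5*) and for erythroid cells (*Alas2*). DESeq2 called 3 of the type 1 markers, 4 of the type 2 markers, 3 of the epithelial, 1 of the endothelial and 4 of the cardiac muscle ones lower. It called 0 of the fibroblast, smooth muscle, pericyte, Schwann cell, mesothelium, leukocyte and erythroid ones lower. *Laptm5* passed in 6 of 17 fits, *Hopx* (type 1) and *Abca3* (type 2) in 14, *Cldn5* and *Msln* in 15 and *Alas2* in 14 of 16. Over all lists together 21 markers were called lower. Leaving out 1 lung moved that number, but it leaves 1 lung in a group. None of the markers was at 0 counts. Cardiac muscle markers, which myocardium around the pulmonary veins carries, were lower for 3 of the 4 tested of 5 (183 and 234 against 147 and 134 CPM). Sums were also lower without overlap for mesothelium (315 and 343 against 231 and 281 CPM), leukocytes (111 and 107 against 91.9 and 96.6 CPM), Schwann cells (143 and 139.7 against 132 and 125 CPM) and erythroid cells (1403 and 1794 against 1218 and 1395 CPM). Of the mesothelial markers 2 had a fold change below 0 and 2 above, and *Msln* alone had 207 and 224 against 129 and 169 CPM. Of the Schwann cell markers 1 was below 0 and 3 above, and *Erbb3* alone had 132 and 129 against 121 and 113 CPM. The lower sums, those of epithelium, endothelium and cardiac and smooth muscle included, stood beside the lower values of *Itga3*, *Itga6*, *Itga7*, *Itga9*, *Lamb3* and *Itgb6*, and their part in those values was not tested.

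**Figure D5:**
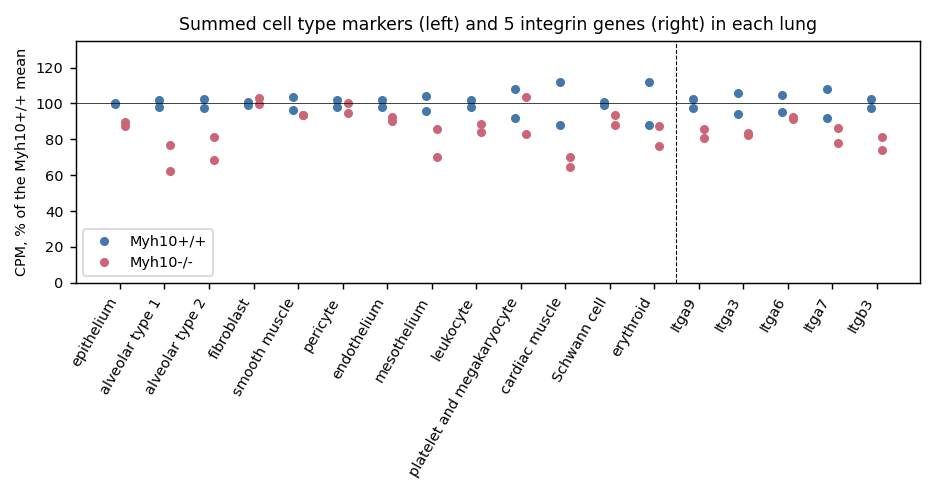
Summed CPM of each marker list (left of the dashed line) and CPM of 5 integrin genes (right), as % of the *Myh10*+/+ mean (y axis), with 1 point per lung. The *Myh10*-/- points of the alveolar type 1 and type 2 lists lie furthest below 100 among the lung epithelial lists, those of fibroblasts lie near 100, and those of *Itga9*, *Itga3*, *Itga6*, *Itga7* and *Itgb3* all lie below both *Myh10*+/+ points.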

How the data were processed

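Gene counts were analysed for E17 left lung lobes of 2 *Myh10*+/+ and 2 *Myh10*-/- embryos. The authors deposited whole read counts for each Ensembl gene and lung, with no normalization. They came from single-end reads of stranded, polyadenylated RNA libraries, which the authors trimmed, aligned to GRCm38 with STAR 2.4.0a and counted with featureCounts 1.5.1 (versions from the submitters' processing notes), and reads that hit several genes or places were dropped. Dropped reads lower the counts of genes that overlap others or have close copies. Exon overlaps and shared 75-base windows were therefore computed from the GRCm38 annotation, which held 45143 of the 45706 genes.

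Groups came from the sample labels. Genotypes were compared by glmQLFit and glmQLFTest (edgeR 4.0.16, limma 3.58.1, R 4.3.3), a quasi-likelihood test, after TMM scaling, on genes with at least 5 counts on average and with Benjamini-Hochberg adjustment over all 18763. No p was adjusted over the adhesion genes alone. Replicate lungs differed beyond counting error (chi-square divided by its degrees of freedom, 7.30 for *Myh10*+/+ and 12.9 for *Myh10*-/-), so the number of lungs limits the precision more than the depth does. On simulated counts (18509 genes tested), the test called 63 of 100 genes changed by 0.4 on the log2 scale, 100 of 100 changed by 1 and 13 of 18309 unchanged ones.

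The 42 genes, the further lists and the tests were chosen with earlier results of these data known. CPM in each lung are given for adhesion genes with an unadjusted p under 0.05, for the gene with the lowest p in each role and for the 5 highest per exon length. From the further lists, genes past an adjusted p of 0.05 are named, or else the one with the lowest p, with up to 3 more by p (1 matrix ligand past it is not reported here). *Itgav*, *Lama3*, *Nkx2-1*, *Pf4*, *Epcam* and *Erbb3* were named outside this rule, after their values were seen.

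The alternatives were DESeq2's size factors, library totals, 3 other filters on low counts, leaving out chromosomes X and Y, a robust dispersion, the replicate number as a block, a correction for GC content and length (on the 18664 genes with both), these last 2 together, the Wald test of DESeq2 1.42.0, an adjusted p under 0.1 and each lung left out. The crossed numbers as a block were added after the data were seen.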

Additional observations from a re-analysis of the deposited data

How the results depend on the processing

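Of 668 fold changes of single genes under an alternative, 625 kept their direction and their side of the threshold, 15 passed it newly, 1 (*Itga9* without *Myh10*+/+ lung 1) lost it and 27 changed sign. Over all genes tested, the median log2 fold change was 0.0018 in the report and 0.0218 with library totals, the alternative furthest from it.

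The number of adhesion genes called lower (1 in the report) was 2 with DESeq2's Wald test, an adjusted p under 0.1, robust dispersion or no chromosomes X and Y. It was also 2 with the replicate block or the crossed numbers as a block. It was 3 with the replicate block and the GC and length correction, and 4 when every gene with at least 1 count was tested. Over all genes, the number called lower moved as well. It was 252 in the report and 466 with the replicate block. With the replicate block and the GC and length correction it was 694, and with every gene tested 688. Leaving out a lung moved the number of adhesion genes called lower too, but it leaves 1 lung in a group. The median log2 fold change of the 42 genes was -0.0499 with library totals and -0.0914 to -0.0555 with a lung left out.

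Of the further integrins, 0 were called lower with DESeq2's size factors, filterByExpr or a mean of at least 50 counts, 2 when every gene with 1 count was tested or at an adjusted p under 0.1, and 0 to 2 with a lung left out. Higher were 0 at a mean of at least 50 counts and 0 to 1 with a lung left out. Of the 54 further focal adhesion genes, 1 was called lower with robust dispersion or the replicate block, 2 with the replicate block and GC and length, with every gene tested or at an adjusted p under 0.1, and 0 to 4 with a lung left out, when 0 to 1 was higher. Of the matrix ligands, 4 were lower with the Wald test or an adjusted p under 0.1, 5 with the replicate block and GC and length, 7 with every gene tested and 0 to 5 with a lung left out. Calls over all genes moved under these settings too, and the causes of these differences were not tested.

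Sign changes affected 9 adhesion genes whose log2 fold changes in the report were no larger than 0.0521 in size. With library totals the values were 0.0114 for *Actn1*, 0.0084 for *Lims1*, 0.0130 for *Enah* and 0.0099 for *Itga4*. After the GC and length correction they were 0.0259 for *Actn1*, -0.0249 for *Itgb1*, 0.0062 for *Ilk* and -0.0827 for *Lpp*, and with the replicate block added 0.0261, -0.0249, 0.0090 and -0.0823. With a lung left out, values ran from -0.0214 to 0.0077 for *Actn1*, -0.1123 to 0.0113 for *Vcl*, -0.1514 to 0.1485 for *Itga4*, -0.0314 to 0.0125 for *Lims1*, -0.0371 to 0.0228 for *Enah*, -0.2490 to 0.1751 for *Ilk*, -0.0451 to 0.0537 for *Lpp* and -0.0956 to 0.0236 for *Tln2*.

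The labels do not say that a replicate number marks a shared litter or day. Deviations of same-numbered lungs correlated at -0.297 over all genes tested and at -0.654 among genes averaging 250 counts or more. Both negative values include chromosomes X and Y, and same-numbered lungs differed in *Xist*. Without these chromosomes the correlation was 0.0114, so the numbers were not taken as pairs. The crossed block joins the lungs alike in *Xist*. The log2 fold change of *Myh10* was 0.06 with the replicate block, and 0.03 to 0.10 with a lung left out.

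Depth limits *Ilk*, *Itga11* and *Itgb4* most, the 3 adhesion genes that averaged fewer than 250 counts, and the 8 genes past an unadjusted p of 0.05 averaged more.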
